A study of Mus musculus with 4 samples.

Results

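The 9 small leucine-rich proteoglycan genes Dcn, Lum, Kera, Epyc, Aspn, Omd, Ogn, Fmod and Bgn were examined for binding of Isl1, a LIM-homeodomain transcription factor, in the mouse embryonic genital tubercle, from which the external genitalia of both sexes grow. They were taken by name from 21887 protein-coding genes, and every peak with its midpoint inside a gene or within 500 kb of it was collected. The data came from 2 Isl1 ChIP-seq samples (chromatin immunoprecipitation with sequencing), replicates 1 and 2, each of wildtype CD1 embryos at E14.5 (embryonic day), set up with 2 input DNA samples of the same tissue, strain, age and genotype whose values are not analysed here. Nothing in the labels says how many embryos went into a replicate, and the whole tubercle was used, so the cells in which a site was bound cannot be told apart. Replicate 1 had 8860 peaks and replicate 2 had 10162, and overlaps of at least 1 bp formed 6834 shared regions, called shared here because a peak of each replicate lay in them. Each peak carried a whole-number score of the authors, from 20 upwards, that ranks peaks within a list. The lists hold no read totals, so depth is unknown.

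Small leucine-rich proteoglycans are secreted proteins with a core of leucine-rich repeats, most of them carrying chondroitin, dermatan or keratan sulfate chains. They bind collagen fibrils, limit how fibrils fuse and thicken, and hold growth factors of the Tgf-beta family in the matrix. Decorin (Dcn), biglycan (Bgn) and asporin (Aspn) form one class of the family, lumican (Lum), keratocan (Kera), fibromodulin (Fmod) and osteomodulin (Omd) another, and epiphycan (Epyc) and osteoglycin (Ogn) a further one. In the mouse 7 of the 9 genes sit in clusters: Dcn, Lum, Kera and Epyc follow each other on chromosome 10 (97479500 to 97681908, mm10), and Aspn, Omd and Ogn on chromosome 13 (49544443 to 49624501). Fmod (chromosome 1, 134037254 to 134048280) and Bgn (chromosome X, 73483601 to 73495936) lie apart from them. Windows of neighbours in a cluster overlap, so the 9 genes gave 4 separate places, not 9.

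Most of the sites lay at the Dcn cluster. The 4 windows together held 30 shared regions: 21 at the Dcn cluster (Poisson 95% interval 13.0 to 32.1, counting error only), 7 at the Aspn cluster (2.81 to 14.4), 2 at Fmod (0.242 to 7.22) and none at Bgn, where a count of 0 allows up to 3.69. Per megabase that was 17.5 regions at the Dcn cluster, 6.48 at the Aspn cluster, 1.98 at Fmod and 0 at Bgn, against 2.54 over the stretch between the first and last gene of every chromosome. At least 1 shared region lay within 500 kb of 8 of the 9 genes, a share near the background, since 78% of all protein-coding genes had one. The 9 genes stood further from the background close to the gene: 6 of 9 had a shared region inside or within 1 kb, against 11.1% of all genes, and 4 of 9 had one inside, against 8.32%. Those 6 genes, Dcn, Lum, Kera, Aspn, Omd and Ogn, belong to the 2 clusters, and the 1 kb distance was chosen after values were seen. The count inside or within 1 kb was 4 of 9 when overlaps had to cover at least 50% of both peaks (10.4% of all genes), and 4 of 9 when peaks had to score at least 50 (10.2%). When only peaks that scored at least 100 were kept, it was 1 of 9 (Omd), against 7.18% of all genes, and 0 of 9 had a region inside, against 4.84%.

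Promoter sequences were shown for Omd and Cenpp, where peaks of both replicates reached the promoter. They were also shown for the single member promoters with most and fewest copies of TAAT, the core that homeodomain proteins bind. RefSeq promoters (GRCm38.p6, 250 bases before to 50 after the start) were found for 7 of the 9 members, all but Dcn and Lum. Omd was the only one of those 7 whose promoter touched a shared region, as did 2.81% of 32851 listed promoters. In the first pair of sequences the capitals mark bases covered by the peaks of both replicates. Omd runs from chr13:49582212-49582511 on the plus strand, and Cenpp, a centromere protein gene whose promoter holds the region with the highest lower score of the 30, from chr13:49652682-49652981 on the minus strand.
Omd: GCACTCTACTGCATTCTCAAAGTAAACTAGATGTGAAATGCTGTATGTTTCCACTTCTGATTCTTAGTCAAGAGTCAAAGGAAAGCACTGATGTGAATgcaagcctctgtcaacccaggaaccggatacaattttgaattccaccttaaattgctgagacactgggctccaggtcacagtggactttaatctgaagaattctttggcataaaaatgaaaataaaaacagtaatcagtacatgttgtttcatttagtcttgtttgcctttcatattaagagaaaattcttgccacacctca
Cenpp: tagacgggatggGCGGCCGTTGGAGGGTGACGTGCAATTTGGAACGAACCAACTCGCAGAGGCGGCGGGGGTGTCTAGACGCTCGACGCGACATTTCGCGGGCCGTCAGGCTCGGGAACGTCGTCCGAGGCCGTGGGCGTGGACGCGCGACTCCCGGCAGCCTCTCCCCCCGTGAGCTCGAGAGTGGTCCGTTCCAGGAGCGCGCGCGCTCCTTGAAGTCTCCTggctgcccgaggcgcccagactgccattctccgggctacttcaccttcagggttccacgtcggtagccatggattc
Peaks of both replicates covered 98 bases of the Omd promoter and 212 of the Cenpp promoter.

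The letters TAAT, or ATTA on the other strand, were present in 58.0% of all listed promoters. In the next pair the capitals mark every copy of them, overlapping copies included. Aspn runs from chr13:49544193-49544492 on the plus strand, and Bgn from chrX:73483351-73483650 on the plus strand.
Aspn: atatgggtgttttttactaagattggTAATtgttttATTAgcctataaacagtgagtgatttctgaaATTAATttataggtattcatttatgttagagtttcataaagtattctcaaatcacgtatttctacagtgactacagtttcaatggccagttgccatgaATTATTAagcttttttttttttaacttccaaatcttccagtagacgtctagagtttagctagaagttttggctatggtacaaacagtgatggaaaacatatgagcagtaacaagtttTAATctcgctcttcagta
Bgn: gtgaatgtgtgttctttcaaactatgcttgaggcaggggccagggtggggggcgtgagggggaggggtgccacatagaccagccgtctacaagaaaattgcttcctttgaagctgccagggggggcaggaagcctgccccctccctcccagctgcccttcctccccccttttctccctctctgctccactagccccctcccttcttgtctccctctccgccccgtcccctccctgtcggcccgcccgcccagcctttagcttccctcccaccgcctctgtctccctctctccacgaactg
The Aspn promoter held 7 copies, and 1 of them was part of the longer motif TAATTG, which 8.0% of listed promoters held on either strand. The Bgn promoter held none of them. No peak covered any base of either window.

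Copies of TAAT were not confined to promoters that a peak reached. Omd held 3 copies, all outside the bases covered by a peak of either replicate, and Cenpp held none. Kera, Ogn and Fmod held 1 each. Epyc had a start with 3 copies, 1 of them within TAATTG, and a second start with 6 copies, 1 of them within CTAATG, which 7.36% of listed promoters held on either strand. TAATTA, which reads the same on both strands, was in no promoter of the 7 members, against 5.29% of listed promoters. Nor was TAATGG on either strand, against 7.73%. All these motifs contain TAAT, and a copy of CTAATG can overlap a copy of TAATGG. These windows are short and most peaks at the members lay outside them, so the letters describe the promoters and not the bound sites. The promoters of the clustered members were poor in G and C, from 31.0% at Aspn to 42.3% at Ogn, against 51.0% at Fmod, 63.7% at Bgn, 66.7% at Cenpp and a median of 52.7% over all listed promoters.

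The Dcn cluster on chromosome 10 was the densest of the 4 places. Epyc had 19 shared regions within 500 kb, Dcn and Kera 17 each and Lum 16, against a median of 2 over all genes (quartiles 1 and 4, 90th percentile 6). At least 16 regions were reached by 77 of 21887 genes (0.352%), which lie in 22 separate stretches, and the 4 genes of this cluster share 1 of them. Taken alone, replicate 1 had 20 to 22 peaks and replicate 2 had 25 to 28 at each of the 4 genes, against a median of 3 in each list over all genes. The neighbourhood was poor in genes, with Ccer1 the only other protein-coding gene that reached into the window. Among the 5472 genes with fewest coding neighbours the median was also 2 (90th percentile 7), and the 4 genes stood at the 99.3rd percentile or higher of them.

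**Figure D1:**
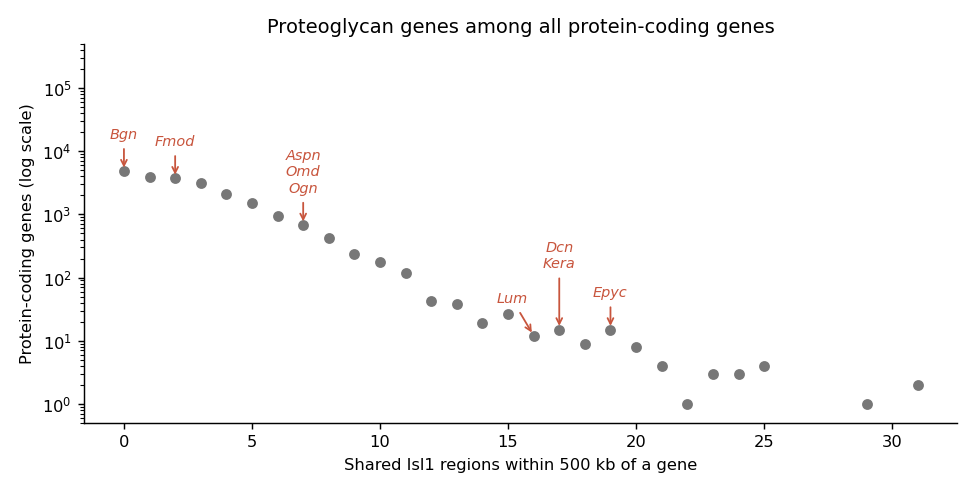
The horizontal axis gives the number of shared Isl1 regions within 500 kb of a gene and the vertical axis, on a log scale, the number of protein-coding genes with that count; arrows mark the 9 proteoglycan genes. Lum, Dcn, Kera and Epyc stand at 16 to 19 regions, Aspn, Omd and Ogn at 7, Fmod at 2 and Bgn at 0.

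The 21 regions of this cluster fell into 3 groups: 10 below Dcn, 6 between Dcn and Epyc, and 5 far above Epyc. The nearest protein-coding gene to the 5 was Ccer1, and to the regions 293 to 455 kb below Dcn it was Gm46240. All are counted here by distance alone, and the data do not show to which gene a region belongs. The group below Dcn reached from 455 kb away to the edge of the gene. Its highest lower score (the lower of the 2 replicates, which takes both lists as if on one scale) belonged to the region at chromosome 10, 97282906 to 97283248, with scores of 206 in replicate 1 and 204 in replicate 2, 196 kb from Dcn. A region 244 kb from Dcn (97235330 to 97235662) had scores of 186 and 184 in replicates 1 and 2, and one 166 kb away (97313851 to 97314102) had 177 and 233. The region at 97235330 lay within the long non-coding RNA gene Gm34044, as did a weaker one at 97211948 to 97212328 with scores of 55 and 87. The region nearest to Dcn, whose product decorin binds collagen and Tgf-beta, was a low-scoring one that spanned its lower-coordinate end (97479026 to 97479609), with its midpoint 0.29 kb outside the gene and scores of 49 in replicate 1 and 80 in replicate 2. It joined 1 peak of replicate 1 with a pair of replicate 2 peaks and stood at the 96.7th percentile of width.

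Within the cluster, regions lay inside Lum and Kera and between their neighbours. The region in Lum, the gene of a corneal and dermal keratan sulfate proteoglycan, was at 97567548 to 97567859, 2.22 kb inside the lower-coordinate end, and scored 83 in replicate 1 and 127 in replicate 2. The region in Kera, whose product is a keratan sulfate proteoglycan best known from the cornea, was at 97608357 to 97608663, 1.31 kb downstream of its listed start, with scores of 83 and 197. Between Lum and Kera the non-coding RNA gene 4930473O22Rik held 2 regions, and the one at 97595650 to 97596186 had the highest lower score between Dcn and Epyc, from scores of 193 (replicate 1) and 251 (replicate 2). It lay 11.1 kb from Kera and stood at the 94.8th percentile of width. Between Kera and Epyc lay a region at 97624453 to 97624762, with scores of 69 and 191, and another at 97626640 to 97626918, with scores of 162 and 94. The one at 97626640 was the nearest shared region to Epyc, the gene of a growth plate cartilage proteoglycan, at 17.3 kb. Replicate 1 alone placed a peak inside Epyc (97650859 to 97651014, score 60), and replicate 2 alone placed one 8.76 kb from it (97635192 to 97635418, score 70).

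Above Epyc the first shared region was 325 kb from the gene, and 5 lay between there and 474 kb. The replicates ranked some regions of this group unequally, as they did some between Dcn and Epyc. The region at 98030415 to 98030679 had scores of 97 in replicate 1 and 352 in replicate 2, which put it at the 45.8th percentile of replicate 1 scores and at the 88.8th of replicate 2 scores over all shared regions. Its neighbour at 98007151 to 98007342 had scores of 96 and 265, at the 45.3rd and 81.5th percentiles. By contrast, the region at 98142780 to 98143002 stood at the 42.6th and 43.0th. Between Dcn and Epyc the region at 97624453 stood at the 26.2nd and 69.3rd. Nothing in the sources states that scores of different libraries are on one scale, so the replicates were compared here by percentile. The lower score used for ranking, and the lowest scores of 50 and 100, still take both lists as if on one scale.

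**Figure D2:**
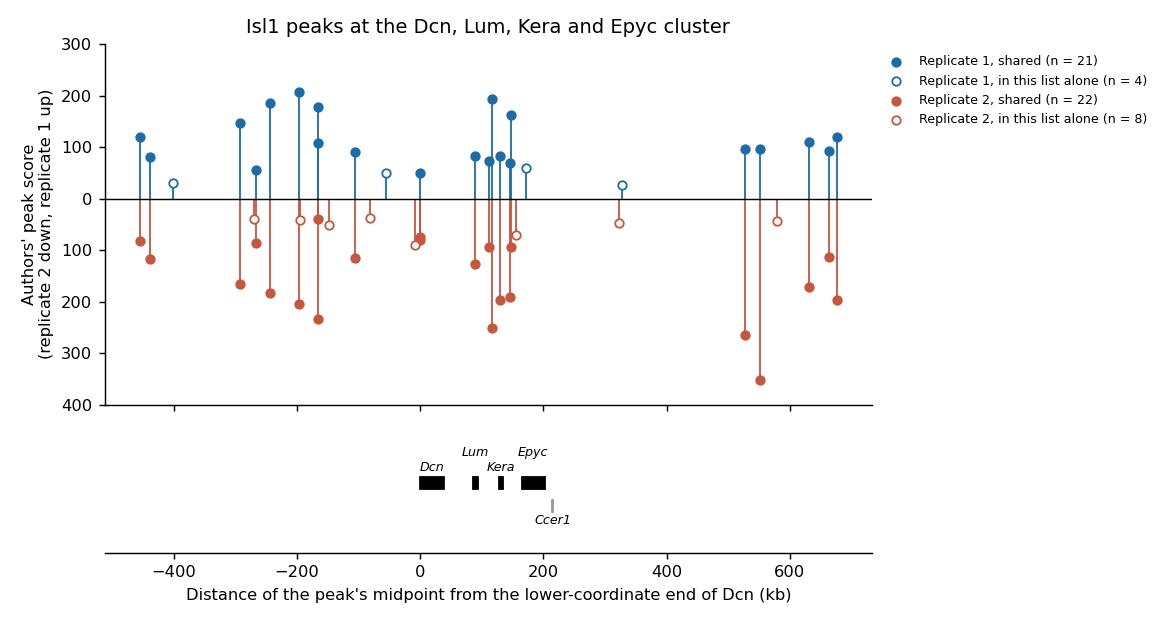
The horizontal axis gives the distance of each peak's midpoint from the lower-coordinate end of Dcn in kb, and the vertical axis the authors' peak score, replicate 1 upwards and replicate 2 downwards; filled points are peaks shared between replicates, open points are in one list alone, and boxes are genes. The 25 replicate 1 peaks and 30 replicate 2 peaks fall below Dcn, between Dcn and Epyc and far above Epyc, with few and low-scoring peaks in the stretch between the last groups.

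The density at the Dcn cluster was one of number rather than of score. None of its 21 regions reached the 90th percentile of shared regions by lower score or by the scores of either replicate alone, and 11 of the 21 stood above the median lower score of 91. The median was 93, and the highest, 204, ranked 1302nd of 6834. Of the 21 regions, 18 were wider than the median shared region, with a median width of 326 bp against 251 bp over all. Limited to peaks that scored at least 100, a cut above the median lower score of 91 over all shared regions, the cluster kept 7 shared regions.

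At the Aspn cluster on chromosome 13 4 of the 7 shared regions lay between the outer ends of Aspn and Ogn, and the other 3 lay outside them. Aspn, Omd and Ogn each had all 7 within 500 kb, a count that 8.33% of all genes reached. The 3 genes lie on the plus strand within Cenpp, which runs on the minus strand. A region in this stretch is therefore inside or next to a proteoglycan gene and inside Cenpp at the same time, and the data do not show to which gene it belongs.

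Among regions inside or within 1 kb of a member, the highest lower score was at the start of Omd, which encodes a keratan sulfate proteoglycan of bone matrix. The shared region spanned 49581467 to 49582385, and its midpoint lay 0.36 kb before the start site. Replicate 1 had a pair of peaks there, with scores of 270 and 201, and replicate 2 had a single peak with a score of 454 that overlapped both. The region stood at the 87.1st percentile of all shared regions by its lower score, at the 83.8th by replicate 1 scores and the 93.0th by replicate 2 scores, and at the 99.7th by its width. Its replicate 2 peak covered the first 98 bases of the Omd promoter printed above and ended before the copies of TAAT. A second, weaker region lay 0.97 kb beyond the other end of Omd (49593317 to 49593756), with scores of 53 in replicate 1 and 84 in replicate 2. When overlaps had to cover at least 50% of both peaks, the region at the start of Omd was not shared. Its longest overlap was 415 bp of the 843 bp replicate 2 peak. The second region was then the nearest to Omd.

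Aspn and Ogn each held a weak region just inside the gene. In Aspn, whose product binds collagen and Tgf-beta and carries a run of aspartates, it lay 1.51 kb downstream of the start (49545849 to 49546058), with scores of 31 in replicate 1 and 124 in replicate 2. That replicate 1 score stood at the 2.95th percentile of its list's shared scores, against the 48.8th for replicate 2. In Ogn, also known as mimecan or osteoinductive factor, it lay 0.913 kb downstream of the start (49608819 to 49609026), with scores of 54 and 60. Aspn, Ogn and Kera thus each had a shared region with its midpoint at most 1.51 kb downstream of the listed start.

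The highest score of the 30 regions was 28.4 kb beyond Ogn. This region (49652748 to 49652981) had scores of 702 in replicate 1 and 556 in replicate 2 and ranked 256th of 6834, and it was the only 1 of the 30 at or above the 90th percentile by lower score. It lay between the listed starts of Cenpp and of Nol8, a nucleolar protein gene that runs the other way. It lay within the Cenpp promoter and overlapped part of the Nol8 promoter, and it is counted here for Aspn, Omd and Ogn by distance alone. Another region stood at the far end of Cenpp, 2.17 kb from Ippk (49466651 to 49466833, scores 76 and 83). The last of the 7 was 5.67 kb from Bicd2 (49335760 to 49335946, scores 45 and 31).

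**Figure D3:**
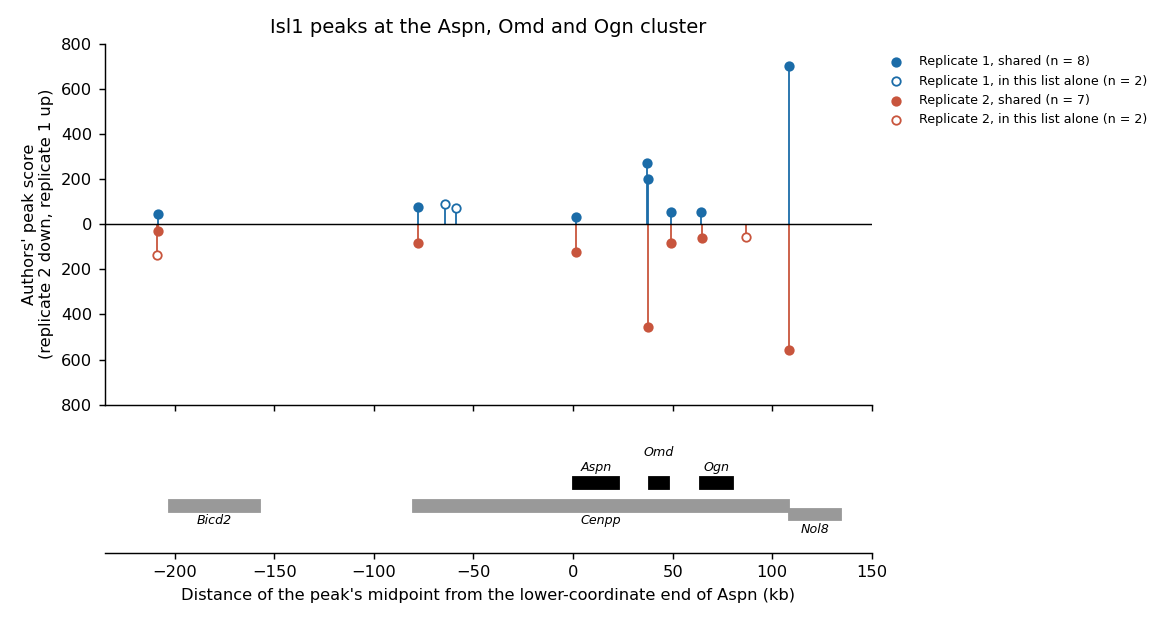
The horizontal axis gives the distance of each peak's midpoint from the lower-coordinate end of Aspn in kb, and the vertical axis the authors' peak score, replicate 1 upwards and replicate 2 downwards; filled points are shared, open points are in one list alone, black boxes are the proteoglycan genes and grey boxes are neighbours. The tallest pair stands at the border of Cenpp and Nol8 (702 and 556) and the next at the start of Omd.

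Fmod and Bgn, the members outside the clusters, had few sites or none. Fmod encodes fibromodulin, a keratan sulfate proteoglycan of tendon and dermis, and its nearest shared region was 121 kb away. That region lay inside Prelp, another proteoglycan gene of the family (133916192 to 133916293), with scores of 76 in replicate 1 and 98 in replicate 2. The other was 236 kb away at one end of Atp2b4, a calcium pump gene (133801040 to 133801189, scores 147 and 83). Replicate 1 alone had another peak, with a score of 32, 95.6 kb from Fmod. With 2 regions Fmod stood at the median of all genes, and both disappeared when peaks had to score at least 100. That cut lies above 91, the median lower score of all shared regions.

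Bgn, which encodes biglycan and is the closest relative of Dcn in the family, had no peak of either replicate within 500 kb. Replicate 1 peaks were present within that distance at 82.7% of all genes and replicate 2 peaks at 84.3%. The nearest shared region was 751 kb away inside Flna, the filamin A gene (74246444 to 74246598, scores 166 in replicate 1 and 127 in replicate 2). The window held 37 other protein-coding genes, none with a region inside. A site under the authors' threshold does not appear in the lists, so the absence of a peak does not show that Bgn was unbound.

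**Figure D4:**
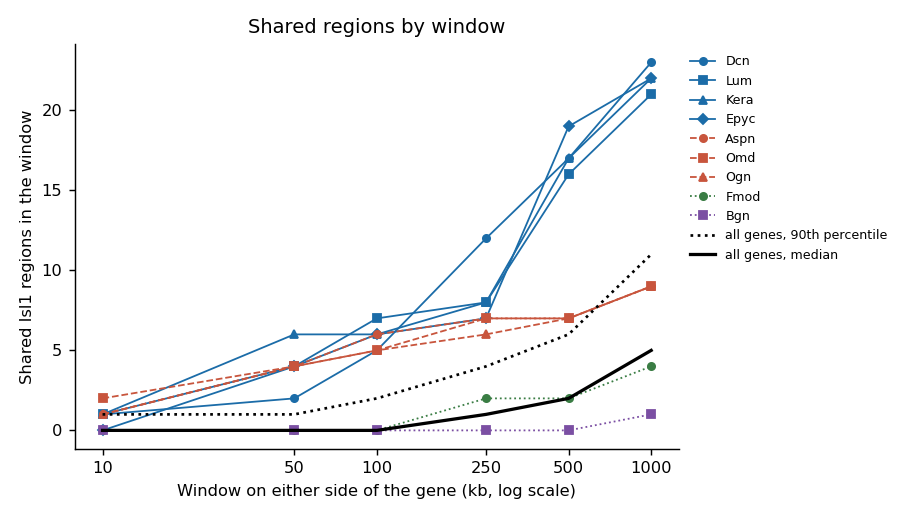
The horizontal axis, on a log scale, gives the window on either side of a gene in kb and the vertical axis the number of shared Isl1 regions in it, for the 9 proteoglycan genes and for all protein-coding genes (median and 90th percentile). The 7 clustered genes are above the 90th percentile from 50 to 500 kb, while Fmod stays within 1 region of the median and Bgn at or below it, both at 0 up to 100 kb.

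The order of the members was not the same at every distance. Within 50 kb Kera had 6 regions, Lum, Epyc, Aspn, Omd and Ogn 4 each and Dcn 2, against a median of 0 and a 90th percentile of 1 over all genes. Within 100 kb Lum had 7, Kera, Epyc and Aspn had 6 each and Dcn, Omd and Ogn had 5 each. Epyc had 7 within 250 kb and 19 within 500 kb, and Dcn had 12 and 17. The regions that Epyc gained lay partly below Dcn and partly in the group of 5 far above Epyc. Ogn had 6 and 7 at those distances, and Aspn, Omd, Fmod and Bgn had the same number at both. At the edge of the window the last shared region kept was 474 kb from the Dcn cluster (98155822 to 98156148, scores 120 and 197) and the first left out was 902 kb from it (scores 61 and 139). At the Aspn cluster the first left out was 528 kb away, near Wnk2 (scores 127 and 114), and at Fmod it was 739 kb away in Ppp1r12b (scores 93 and 144).

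Most peaks near the members were seen in both replicates. In replicate 1, 31 of 38 peaks overlapped a replicate 2 peak (81.6%, Wilson 95% interval 66.6 to 90.8%), against 78.5% of that whole list. In replicate 2, 31 of 41 peaks did (75.6%, 60.7 to 86.2%), against 68.3%. The 7 peaks of replicate 1 alone had a median score of 50, against 96 for its shared ones, and the 10 of replicate 2 alone had 49.5, against 118. The strongest unshared peak, with a score of 137, was a replicate 2 peak at 49335470 to 49335719 beside the shared region near Bicd2. By lower score the 30 regions had a median of 83, at the 44.1st percentile of all shared regions, and 13 of 30 were above the overall median.

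**Figure D5:**
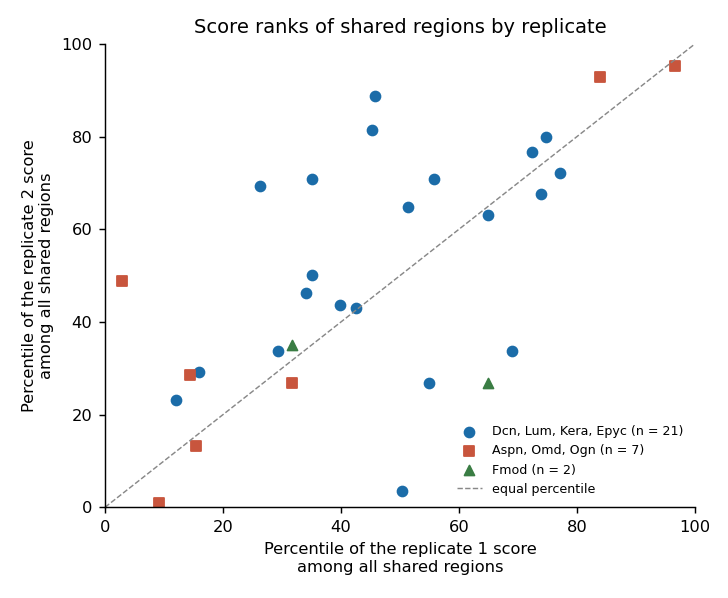
Each point is 1 of the 30 shared regions near the proteoglycan genes, placed by the percentile of its replicate 1 score (horizontal) and of its replicate 2 score (vertical) among all 6834 shared regions; the dashed line marks equal percentiles. The Cenpp and Nol8 region and the Omd region stand at the upper right, and several Dcn cluster regions lie above the line.

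Fibrillar collagens and elastic fibre genes, matrix partners of these proteoglycans, were set beside them. Of the 9 members 4 had a region inside and the median count within 500 kb was 7. Of 11 fibrillar collagen genes 6 had a region inside and the median was 4, with 14 each at Col3a1 and Col5a2, which are neighbours, and 9 at Col1a1. Of 18 elastic fibre genes 8 had a region inside and the median was 4, with 15 at Lox, which crosslinks collagen and elastin, and 12 at Fbn2. Over all protein-coding genes 8.32% had a region inside and the median within 500 kb was 2. The lists were not matched for gene length, no difference between them was tested, and neighbours within each of them share regions.

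Of 9 other leucine-rich proteoglycan genes, 1 had a region inside (Prelp), against 8.32% of all genes. That region was also counted for Fmod. All 9 had at least 1 within 500 kb, against 78% of all genes, with a median of 4, against 2. Ecm2, a matrix protein gene that lies beside Aspn within Cenpp, had the most, 8, and Chadl and Podnl1 had 6 each. Regions of the Aspn cluster are among those of Ecm2, so genes of different lists can count the same regions. Of 27 enzyme genes that build or sulfate the sugar chains of proteoglycans, 4 had a region inside, against the same 8.32%. Their median was 3. Csgalnact1, which starts chondroitin chains, had 7 within 500 kb, of which 1 lay inside the gene, and Chst15 and Xylt2 also had 7.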

How the data were processed

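Isl1 ChIP-seq peaks of genital tubercle chromatin came as 1 deposited list per ChIP sample, in mm10. Each line gives where a peak lies and the authors' score for it, a whole number. Trimmomatic 0.35, Bowtie2 2.2.6, MACS2 2.1.0.20150731 and bedtools are named, without order or settings, in the submitters' processing notes. The sources used here give no formula for the score, no calling threshold and no account of the input. Percentiles of a replicate's scores were therefore taken among that replicate's own scores over all shared regions, not over its whole peak list. Ranking by the lower of both scores takes the lists as if on one scale, and ranks by each list alone were an alternative. Per the labels, libraries gave 75 bp reads and samples were grouped by title; whether replicates came from separate litters is not stated, and their spread may be technical.

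Shared regions are joined spans of peaks overlapping by at least 1 bp, with the score of the highest peak of each replicate; the midpoint of the longest overlap decides location. Genes and promoters came from RefSeq tables of GRCm38.p6 (the same chromosome coordinates as mm10), and no genome sequence was used. A percentile is the share of values below with ties split evenly. Intervals are Wilson or exact Poisson at 95% and cover counting error. Only 1 group had values, so no test between groups was made. Members, gene lists and naming rules (all 9 members, genes that hold or flank a region in a window, and the genes of each list with most regions) were chosen with earlier results of these data known. The 1 kb distance, the windows of 10 to 250 kb other than 100 kb, and the promoters printed were chosen after values were seen. Alternatives for the 1 kb count were also added then. Alternatives changed the overlap, the lowest score, the replicate, the window and the use of midpoints. Counting was tested on simulated peaks. Python 3.11.15, pandas 2.3.3, numpy 2.4.6 and scipy 1.17.1 were used.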

Additional observations from a re-analysis of the deposited data

How the results depend on the processing

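Of 194 values under alternatives, 146 stayed close to the reported one, and 48 moved, by over 1.5 times for counts and distances, out of the Wilson interval for shares of shared peaks, or by over 1 SD between replicates for the median percentile, and 35 of the 48 concern single genes. With scores of at least 100, the windows held 9 regions in all, 7 at the Dcn cluster, 2 at the Aspn cluster and 0 at Fmod, 0 of 9 members had a region inside (4.84% of all genes) and 1 of 9 inside or within 1 kb (7.18%), and 47.4% of replicate 2 peaks were shared. With a window of 100 kb there were 13 regions in all, 7 at the Dcn cluster and 0 at Fmod, and with 1 Mb there were 4 at Fmod and 1 at Bgn. Ranked by replicate 2 scores, the median percentile of the 30 regions was 47.5. From either replicate alone the 9 genes had 38 to 41 peaks, and 5 members had a peak inside, against 10.1% of all genes in replicate 1 and 10.4% in replicate 2. Inside or within 1 kb it was 7 members in replicate 1 (13.4% of all genes) and 6 in replicate 2 (13.6%). Members with a region inside numbered 3 with reciprocal overlap of at least 50%, which lost Lum (7.71% of all genes), 3 with scores of at least 50, which lost Aspn (7.48%), and 5 by any base, which added Dcn (9.83%). Inside or within 1 kb, reciprocal overlap lost Dcn and Lum, and scores of at least 50 lost Dcn and Aspn. The nearest shared region to Dcn was 73.0 kb away with reciprocal overlap and 49.6 kb away with scores of at least 50. Reciprocal overlap also dropped the region at the start of Omd, which left the nearest to that gene at 0.97 kb. No paired analysis was possible because no file of an input sample was at hand to pair with a ChIP sample by number. The unknown depth limits what the absence of a peak shows at Bgn and Fmod.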

Other observations

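Of 18 large and cell-surface proteoglycan genes 3, all glypicans, had a shared region inside, against 8.32% of all genes. Their median count within 500 kb was 3, against 2 over all genes. Gpc3 had 6 within 500 kb, of which 4 lay inside the gene, its neighbour Gpc4 also had 6, Gpc5 had 7, of which 2 lay inside, and Gpc6 had 5, of which 4 lay inside. Prg4, the lubricin gene, had 6 with none inside, Gpc2 had 2 and Gpc1 had none. The versican gene Vcan had 2 within 500 kb, the nearest 187 kb away. Of 13 growth factor and receptor genes whose products are known to bind or respond to decorin or biglycan, 5 had a region inside. Over all genes 8.32% did. All 13 had at least 1 within 500 kb, against 78% of all genes, with a median of 4. Bmp4 had 12, and Igf1r, Tgfb1 and Tlr2 had 8 each, of which 3 lay inside Igf1r. None of these lists was tested against others.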
